A study of Mus musculus with 6 samples.

Results

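The genes examined here serve a protease system of the epithelial cell surface and the sorting and polarity machinery around it. They were St14, Prss8, Spint1, Spint2, Rab25, Ap1m2, Crb3 and Llgl2. They were picked by gene symbol, and all 8 of 8 were found among the 30743 features of the deposited mouse expression table. The data came from Tri-PyMT cells, a mouse breast tumour line that carries a colour switch for epithelial-mesenchymal transition (EMT). In this line a Cre recombinase under a mesenchymal promoter (S100a4, also called Fsp1) changes the cell from red (RFP+) to green (GFP+) fluorescence, and the labels call RFP+ cells non-EMT and GFP+ cells EMT. The colour therefore records that the promoter has been active and does not measure the present state of a cell. There were 6 RNA samples, 2 from RFP+ cells without treatment, 2 from GFP+ cells without treatment, and 2 from GFP+ cells taken after 7 days in 4 µM 4-hydroperoxy-cyclophosphamide (CTX), an activated form of the alkylating drug cyclophosphamide. All were grown in serum-containing medium and separated by flow sorting, and RNA was taken from the sorted cells. Time in culture is stated for the CTX-treated cells alone. Nothing in the labels tells whether replicates are separate cultures. The p-values therefore measure the spread between these particular samples, which may be technical.

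Matriptase (St14) and prostasin (Prss8) are trypsin-like serine proteases held at the epithelial plasma membrane, where each can help to activate the other. HAI-1 (Spint1) and HAI-2 (Spint2) are membrane-bound Kunitz-type inhibitors that restrain both. Rab25 is an epithelial member of the Rab11 family of recycling GTPases, and Ap1m2 encodes the epithelial medium chain (mu1B) of the AP-1 clathrin adaptor, which sorts proteins to the basolateral membrane. Crb3 is the small Crumbs protein of the apical membrane, and Llgl2 is a Lethal giant larvae homologue that works on the basolateral side. Several of these genes are known targets of epithelial activators of the grainyhead-like family or of E-box repressors such as ZEB1 and SNAI1 that act in EMT.

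Promoters are shown for 4 of the genes because their level differed between the cell populations as described further on. The RefSeq promoter table (GRCm38.p6) matched 5 of the 8 genes and did not hold St14, Prss8 or Llgl2. Each line gives the 250 bases before an annotated start, 5′ to 3′ on the strand of the gene. To check the starts, the bases directly after each were sought in the GENCODE vM21 transcripts of the gene. They were found in 0 of 5 for Spint1, 0 of 4 for Spint2, 2 of 4 for Rab25 and 1 of 5 for Ap1m2. The starts used for Spint1 and Spint2 thus had no such support. Capitals mark CAGGTG, read on either strand so that CACCTG counts too, and AACNNGTT, the core recognised by grainyhead-like factors. The 2 motifs do not overlap in these windows.
Spint1: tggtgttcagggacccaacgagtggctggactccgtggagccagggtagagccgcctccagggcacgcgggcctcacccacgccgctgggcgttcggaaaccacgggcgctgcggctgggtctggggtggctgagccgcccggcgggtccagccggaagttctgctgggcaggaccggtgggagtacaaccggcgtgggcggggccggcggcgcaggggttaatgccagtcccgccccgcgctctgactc
Spint2: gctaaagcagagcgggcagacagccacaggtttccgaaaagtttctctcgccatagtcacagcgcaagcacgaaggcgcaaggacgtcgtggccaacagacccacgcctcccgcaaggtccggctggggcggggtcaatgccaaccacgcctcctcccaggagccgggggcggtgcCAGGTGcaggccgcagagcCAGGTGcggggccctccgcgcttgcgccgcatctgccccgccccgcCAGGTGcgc
Rab25: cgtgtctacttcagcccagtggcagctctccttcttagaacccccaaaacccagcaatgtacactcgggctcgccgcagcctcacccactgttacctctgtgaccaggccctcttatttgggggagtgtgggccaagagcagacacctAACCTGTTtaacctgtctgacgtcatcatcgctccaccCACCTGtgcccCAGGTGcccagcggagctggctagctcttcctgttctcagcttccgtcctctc
Ap1m2: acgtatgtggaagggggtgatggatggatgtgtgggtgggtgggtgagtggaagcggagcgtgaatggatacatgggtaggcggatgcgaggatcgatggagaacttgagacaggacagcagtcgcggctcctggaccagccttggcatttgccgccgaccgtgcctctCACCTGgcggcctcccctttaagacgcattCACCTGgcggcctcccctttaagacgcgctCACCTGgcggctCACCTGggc
The windows lie at chr2:119237110-119237359 on the plus strand for Spint1, and on the minus strand at chr7:29281978-29282227 for Spint2, chr3:88548280-88548529 for Rab25 and chr9:21312334-21312583 for Ap1m2.

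The Spint2 window held CAGGTG 3 times and the Ap1m2 window held CACCTG 4 times. The Rab25 window held 1 copy in each orientation and the only AACNNGTT match, AACCTGTT, while the Spint1 window held neither motif. Crb3, which has 2 annotated starts 30 bases apart, had 3 E-box matches before each. These were the same 3 sites, because the 2 windows overlap. Of all 32851 promoter windows of this length, 17.2% held CAGGTG on either strand and 3.64% held AACNNGTT. The windows of these genes were also richer in G and C, at 58.4% to 72.8% against a median of 52.4% over all promoters. A match describes letters only, and no binding was measured in these samples.

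Levels are given as FPKM (fragments scaled to transcript length and to the mapped fragments of the sample) as the authors deposited them. Their sum over all features ran from 733478 in untreated GFP+ replicate 1 to 1028710 in RFP+ replicate 1, and 11543 to 12866 genes reached an FPKM of 1. Untreated GFP+ replicate 1 stood apart. Its median-ratio size factor was -0.44 on the log2 scale, against 0.02 to 0.15 in the other 5 samples. Many results below are therefore also given after median-ratio scaling or without that sample, and the rest are as deposited. Replicates differed by a robust SD of the log2 ratio of 0.290 in RFP+ and 0.359 in untreated GFP+ cells but of 0.0753 in CTX-treated cells. No read totals were at hand, so the counting error of the values could not be estimated. The cells were checked against marker lists. All 8 epithelial markers (among them Cdh1, Krt8 and Krt18) were expressed, with a summed FPKM of 610 and 838 in RFP+, 134 and 259 in untreated GFP+ and 299 and 287 in CTX-treated cells. Most of each sum was Krt8 and Krt18, at 143 and 137 and at 86.7 and 81.4 FPKM in CTX-treated cells. The list did not move together with CTX. Cldn4 had 1.37 and 3.32 FPKM in untreated GFP+, 18.9 and 19.4 in CTX-treated and 4.32 and 13.1 in RFP+ samples. Krt19 was also higher with CTX, at a log2 change of 0.80 (limma adjusted p = 0.0426). Cdh1, Esrp1 and Cldn3 had log2 changes of 0.20, -0.07 and 0.04. The summed fibroblast markers were lowest in RFP+ cells, at 29.9 and 37.7, then 72.5 and 119, then 118 and 120 FPKM. Most of the sum in CTX-treated cells was Dcn, at 84.0 and 87.3 FPKM. Pdgfrb and Col1a1 were lower in CTX-treated than in untreated GFP+ cells, at log2 changes of -1.09 and -0.71 (limma adjusted p = 0.0114 and 0.0325), and of the 7 markers 5 were tested. Of 7 immune markers only Cd68 reached an FPKM of 1, and Ptprc, which defines leukocytes, was at most 0.0128. None of 5 endothelial markers reached an FPKM of 1. In sorted bulk RNA fewer expressing cells and less RNA per cell cannot be told apart.

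In RFP+ cells the inhibitor Spint2 was the most abundant of the 8 genes per transcript length, followed by its target protease St14 and by Rab25. Spint2 stood at 127 and 145 FPKM, St14 at 56.6 and 74.2, and Rab25 at 32.7 and 37.3, and these ranges did not overlap. Llgl2 (13.4 and 16.5), Ap1m2 (12.6 and 13.7) and Spint1 (10.6 and 15.1) overlapped and have no order among them. Prss8 came next at 8.96 and 6.43, and Crb3 was lowest at 1.46 and 2.83. In untreated GFP+ cells the first places were again Spint2, St14 and Rab25, and neighbours among these did not overlap, while Rab25 and Llgl2 overlapped.

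**Figure D1:**
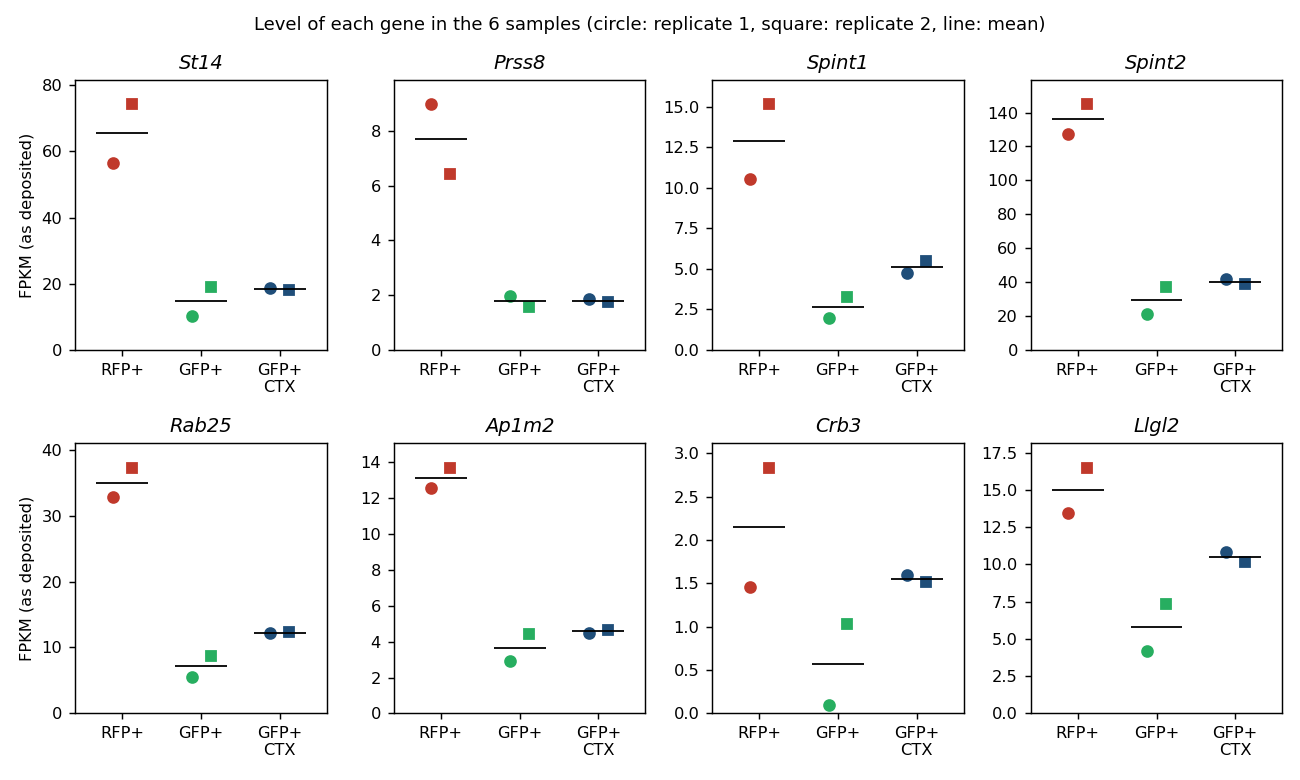
FPKM of the 8 genes in each of the 6 samples, 1 panel per gene with its own linear axis from 0 (circles, replicate 1, squares, replicate 2, horizontal lines, means of 2). In every panel both RFP+ samples lie above both untreated GFP+ samples, and the CTX-treated samples lie above both untreated GFP+ samples in 6 panels and within their span for St14 and Prss8.

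The first comparison asks how the non-EMT and EMT populations of the line differ before treatment. All 8 genes were lower in untreated GFP+ than in RFP+ cells in both samples, and 6 of them, the 2 proteases, the 2 inhibitors and the 2 trafficking genes, fell past the threshold of 0.05. The group mean in GFP+ cells was 20.5% to 38.5% of that in RFP+ cells, with a median of 22.8%, or 24.1% to 45.0% with a median of 26.9% after median-ratio scaling. Tests were made with limma on log2(FPKM + 1), adjusted over all 13080 tested genes (Benjamini-Hochberg), and fold changes on this scale understate the change of low genes. In this comparison 1.78% of the tested genes were lower past the threshold and 0.115% higher, and in 41.5% of them both GFP+ samples lay below both RFP+ samples (1.96%, 1.02% and 20.2% after scaling). The median log2 change was -1.78 over the 8 genes and -0.24 over all tested genes, and -1.58 and -0.01 after scaling.

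Of the proteases, St14 had 56.6 and 74.2 FPKM in RFP+ samples and 10.2 and 19.2 in untreated GFP+ samples. Its log2 change was -2.13 (SE 0.30, limma adjusted p = 0.0217), the 56th most negative of all tested genes. The RFP+ samples were both far above the GFP+ samples, and the lower of the GFP+ values was that of replicate 1. Prss8 had 8.96 and 6.43 FPKM in RFP+ and 1.98 and 1.58 in untreated GFP+ samples, a log2 change of -1.63 (SE 0.20, limma adjusted p = 0.0183). Prss8 was the only one of the 8 genes in which replicate 1 was the higher sample in both groups. After median-ratio scaling both proteases still passed, Prss8 narrowly, with limma adjusted p of 0.0203 for St14 and 0.0490 for Prss8, but not with that scaling in only the 4 samples compared.

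The inhibitors fell with the proteases. Spint1 had 10.6 and 15.1 FPKM in RFP+ samples and 1.99 and 3.29 in untreated GFP+ samples, a log2 change of -1.93 (SE 0.26, limma adjusted p = 0.0201). Spint2 had 127 and 145 FPKM in RFP+ samples and 21.4 and 37.0 in untreated GFP+ samples, a log2 change of -2.23 (SE 0.26, limma adjusted p = 0.0161). Spint2 and Spint1, whose promoter windows are printed above, stood at 21.5% and 20.6% of their RFP+ level. In absolute terms the loss was greatest for Spint2, from a mean of 136 ± 12.6 to 29.2 ± 11.0 FPKM (SD, n = 2).

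The trafficking genes followed the same course. Rab25 had 32.7 and 37.3 FPKM in RFP+ samples and 5.59 and 8.74 in untreated GFP+ samples, a log2 change of -2.17 (SE 0.23, limma adjusted p = 0.0125), the smallest adjusted p of the 8 genes. Ap1m2 had 12.6 and 13.7 FPKM in RFP+ samples and 2.91 and 4.40 in untreated GFP+ samples, a log2 change of -1.62 (SE 0.21, limma adjusted p = 0.0185). Neither gene had overlapping groups, and both passed after scaling too (limma adjusted p = 0.0120 and 0.0121).

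The polarity genes did not pass. Llgl2 had 13.4 and 16.5 FPKM in RFP+ samples and 4.21 and 7.33 in untreated GFP+ samples, a log2 change of -1.27 (SE 0.26, limma adjusted p = 0.0698), which became -1.04 with an adjusted p of 0.0435 after scaling. Crb3 was the lowest of the 8 genes, with 1.46 and 2.83 FPKM in RFP+ samples against 0.0943 and 1.03, a log2 change of -1.04 (SE 0.33, limma adjusted p = 0.206). For Crb3 the 2 GFP+ samples lay far apart, replicate 1 at 9.11% of replicate 2, so its level in these cells is poorly fixed.

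The calls depended on single samples and on settings. With no filter on low values, or with median-ratio scaling in only the 4 samples compared (chosen after seeing the data), 0 of the 8 genes passed in limma, while 8 and 7 of them had an unadjusted p under 0.05. Without untreated GFP+ replicate 1, 3 of the 8 genes passed (Spint2, Rab25 and Ap1m2), without untreated GFP+ replicate 2 all 8 did, and without either RFP+ sample 0 did in limma (8 at an unadjusted p under 0.05 without replicate 1 and 7 without replicate 2), while all 8 changes remained negative in each case. The epithelial markers moved with these genes: Cdh1 had a log2 change of -2.28 (limma adjusted p = 0.0161), and 4 of the 8 epithelial markers fell past the threshold. The part of the cell mixture in the change of the 8 genes was not tested.

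**Figure D2:**
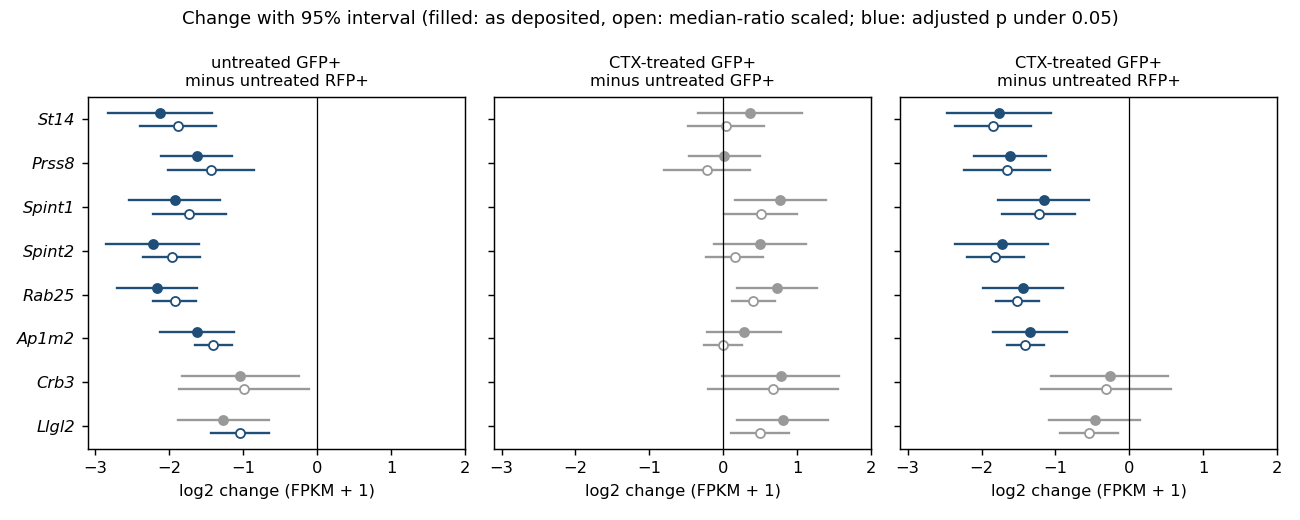
Log2 change of each of the 8 genes in the 3 comparisons, on log2(FPKM + 1), with 95% intervals from limma (filled, FPKM as deposited, open, after median-ratio scaling, blue, adjusted p under 0.05). Values below 0 are lower in the first-named group, and as deposited untreated GFP+ minus RFP+ runs from -2.23 to -1.04, CTX-treated minus untreated GFP+ from 0.02 to 0.80, and CTX-treated GFP+ minus RFP+ from -1.76 to -0.27.

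The second comparison asks what differs in GFP+ cells after CTX. None of the 8 genes passed in either direction (limma), and 3 were higher at an unadjusted p under 0.05, namely Spint1, Rab25 and Llgl2. Of all tested genes 12.3% were higher past the threshold and 0.474% lower (11% and 8.04% after scaling). Both CTX-treated samples lay above both untreated GFP+ samples for 6 of the 8 genes, all but St14 and Prss8, against 51.9% of all tested genes. After median-ratio scaling this held for 4 genes, Spint1, Rab25, Crb3 and Llgl2, against 31% of tested genes. The median log2 change was 0.61 over the 8 genes and 0.25 over all tested genes, and 0.28 and -0.05 after scaling.

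The proteases were the 2 genes whose CTX-treated samples did not both lie above the untreated GFP+ samples. St14 had 18.6 and 18.2 FPKM in CTX-treated samples, inside the span of the untreated GFP+ samples (10.2 and 19.2), a log2 change of 0.37 with a 95% interval from -0.34 to 1.07. Prss8 had 1.86 and 1.75 FPKM in CTX-treated samples against 1.98 and 1.58, a log2 change of 0.02 with an interval from -0.47 to 0.50. The intervals leave room for a change of about 1 log2 unit upward in St14. The inhibitor Spint2 had 41.8 and 38.8 FPKM in CTX-treated samples against 21.4 and 37.0, a log2 change of 0.50 (interval -0.13 to 1.13). Its CTX-treated samples were just above the higher untreated one.

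The other 5 genes had higher values in CTX-treated cells without passing. Spint1 had 4.77 and 5.49 FPKM in CTX-treated samples against 1.99 and 3.29, a log2 change of 0.77 (SE 0.26, limma adjusted p = 0.0999). Rab25 had 12.2 and 12.3 FPKM against 5.59 and 8.74, a log2 change of 0.72 (SE 0.23, limma adjusted p = 0.0853). Both genes kept non-overlapping groups after scaling. Llgl2 had 10.8 and 10.1 FPKM against 4.21 and 7.33, a log2 change of 0.80 (SE 0.26, limma adjusted p = 0.0922). On the FPKM scale the mean was 182% of that in untreated GFP+ cells for Llgl2, 194% for Spint1 and 275% for Crb3. Crb3 had 1.60 and 1.51 FPKM against 0.0943 and 1.03, a log2 change of 0.77 (interval -0.02 to 1.56). Ap1m2 had 4.49 and 4.65 FPKM against 2.91 and 4.40, a log2 change of 0.28 (interval -0.22 to 0.78) that was -0.0028 after scaling. Without untreated GFP+ replicate 2 all but Prss8 passed, and without replicate 1 none did in limma, with 2 higher at an unadjusted p under 0.05. Summed immune markers, nearly all of it Cd68, stood at 31.6 and 30.4 FPKM in CTX-treated samples against 3.49 and 6.84, with Ptprc near 0 in all, and their part in these values was not tested.

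The last comparison sets CTX-treated GFP+ cells against RFP+ cells. It shares the RFP+ samples with the first and the CTX-treated samples with the second, so the comparisons are not independent. In all, 6 of the 8 genes (St14, Prss8, Spint1, Spint2, Rab25 and Ap1m2) were lower past the threshold, against 5.99% of all tested genes lower and 11% higher (16.2% and 15% after scaling). Groups did not overlap for 7 of the 8 genes, all but Crb3, against 37.7% of tested genes (the same 7, against 43.4%, after scaling). Group means were 23.5% to 72.3% of the RFP+ mean with a median of 34.9%, or 22.1% to 68.0% with a median of 32.8% after scaling. The median log2 change was -1.39 over the 8 genes and 0.01 over all tested genes, the latter -0.07 after scaling.

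By share of the RFP+ mean, the proteases were lowest and the polarity genes highest, an order that was not tested. By log2 change Spint2 was lower than Prss8. St14 (18.4 ± 0.336 FPKM, SD, n = 2) stood at 28.1% of its RFP+ mean, a log2 change of -1.76 (limma adjusted p = 0.0117). Prss8 (1.81 ± 0.0742 FPKM) stood at 23.5%, a log2 change of -1.62 (limma adjusted p = 0.00416). These were the lowest shares of the 8 genes. Spint2 (40.3 ± 2.18 FPKM) stood at 29.6%, a log2 change of -1.73 (limma adjusted p = 0.00851). Spint1 (5.13 ± 0.506 FPKM) stood at 39.9%, a log2 change of -1.16 (limma adjusted p = 0.0270). The inhibitors thus also remained below RFP+ cells. Rab25 (12.2 ± 0.101 FPKM) stood at 34.9%, a log2 change of -1.44 (limma adjusted p = 0.00927), and Ap1m2 (4.57 ± 0.113 FPKM) at 34.8%, a log2 change of -1.34 (limma adjusted p = 0.00922). Llgl2 (10.5 ± 0.498 FPKM) stood at 70.1% and Crb3 (1.55 ± 0.0595 FPKM) at 72.3%, with log2 changes of -0.47 (interval -1.08 to 0.14) and -0.27 (interval -1.06 to 0.52) that did not pass. Without RFP+ replicate 1 the limma count was 0 of 8 (6 with an unadjusted p under 0.05), and without RFP+ replicate 2 only Prss8 did. Without either CTX-treated sample 3 passed (St14, Prss8 and Spint2), and with that close pair averaged to 1 sample, an alternative chosen after seeing the data, the count was again 3.

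Ratios within a sample do not depend on how samples were scaled, and they were described without a test. The ratio of Spint2 to St14 FPKM was 2.24 and 1.95 in RFP+ samples, 2.10 and 1.93 in untreated GFP+ samples and 2.25 and 2.13 in CTX-treated samples. The RNA ratio of Spint2 to St14 thus stayed between 1.93 and 2.25 in all 6 samples while both genes fell between the untreated populations. Protein was not measured. The ratio of Spint1 to St14 was 0.187 and 0.204 in RFP+ samples, 0.195 and 0.172 in untreated GFP+ samples and 0.256 and 0.302 in CTX-treated samples. Both CTX-treated values lay above the other 4, a mean difference of 0.60 on the log2 scale from untreated GFP+ samples. The ratio of Prss8 to St14 followed the replicate number more than the group among untreated samples, at 0.158 and 0.0866 in RFP+ and 0.194 and 0.0826 in GFP+ samples, and was 0.0997 and 0.0966 after CTX.

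Ap1m2, Rab25 and Llgl2 each have a paralogue with wider expression, which gives a reference inside the sample. Ap1m1, the ubiquitous mu1A chain of AP-1, had 29.4 and 24.5 FPKM in RFP+ samples and 27.5 and 27.4 in untreated GFP+ samples, a log2 change of 0.03 (limma adjusted p = 0.928). The ratio of Ap1m2 to Ap1m1 was accordingly 0.428 and 0.559 in RFP+ samples, 0.106 and 0.161 in untreated GFP+ samples and 0.195 and 0.203 in CTX-treated samples. The RNA of the AP-1 medium chains therefore lay further on the mu1A side in both GFP+ groups, a difference of -1.91 in the mean log2 ratio between the untreated populations. Rab11a, the ubiquitous relative of Rab25, had 36.7 and 27.3 FPKM in RFP+ samples and 27.2 and 24.7 in untreated GFP+ samples, a log2 change of -0.28 (limma adjusted p = 0.438). The ratio of Rab25 to Rab11a was 0.893 and 1.37 in RFP+ samples, 0.206 and 0.354 in untreated GFP+ samples and 0.319 and 0.314 in CTX-treated samples. The 2 genes were near parity in RFP+ cells and Rab11a prevailed in GFP+ cells. Llgl1 is listed at 0 in untreated GFP+ replicate 1 and at 16.6 to 23.0 FPKM in the other samples, so no ratio is given there. Its neighbour Flii, with which it shares 64 exonic bases, is likewise listed at 0 in that sample and at 29.0 to 34.5 FPKM in the others, and the log2 change of Llgl1 rests on that 0. Elsewhere the ratio of Llgl2 to Llgl1 was 0.586 and 0.779 in RFP+ samples, 0.371 in untreated GFP+ replicate 2 and 0.639 and 0.612 in CTX-treated samples, which fell within the RFP+ span.

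Related genes in 7 lists were read alongside, with 51 tested genes in all. Between the untreated populations the medians of the lists as deposited ran from -1.77 to -0.32 on the log2 scale, against -0.24 over all tested genes. Of the 51, 10 passed between the untreated populations, 9 with CTX and 18 between CTX-treated GFP+ and RFP+ cells, against 1.78% lower and 0.115% higher, 12.3% higher and 0.474% lower, and 11% higher and 5.99% lower over all tested genes. After median-ratio scaling in all 6 samples each of these calls was kept in the same direction, and the counts became 12, 13 and 27. With CTX the 9 higher calls became 10 higher and 3 lower, the latter F2rl1, Inadl and Rab11b. In the first comparison no call was left in limma with no filter on low values or with that scaling in only the 4 samples compared. Of the 9 calls with CTX, 3 were of genes that passed the filter on low values through the CTX-treated samples alone (Tmprss11bnl, Tmprss13 and Mst1). Between CTX-treated GFP+ and RFP+ cells 7 of the 18 calls were higher. The same 3 genes are among these 7, so those 3 calls have the same limit. With the CTX-treated pair averaged, 5, 4 and 6 passed, and without either RFP+ sample 0 did in the first comparison (limma). Of the other membrane-anchored serine proteases 4 of 24 passed the filter on low values, and Prss21 and Tpsg1 were listed at 0 in all 6 samples. The only call of that list between the untreated populations was of Tmprss4, a type II transmembrane protease like matriptase. Tmprss4 had 6.31 and 7.56 FPKM in RFP+ samples, 1.55 and 2.36 in untreated GFP+ samples and 11.5 and 12.4 in CTX-treated samples. It fell by 1.43 on the log2 scale between the untreated populations (limma adjusted p = 0.0245) and was 2.14 higher with CTX (limma adjusted p = 0.00225). Its CTX-treated samples were the highest of the 6. Tmprss11bnl and Tmprss13 entered the test only through the CTX-treated samples, so that a difference was bound to appear and no test is quoted for them. With CTX they went from at most 0.0635 to 3.63 and 3.38 FPKM for the former and from at most 0.259 to 1.12 FPKM in both samples for the latter.

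Of the substrates and partners of the 2 proteases, 8 of 14 were tested, and 4 were lower and 0 higher in untreated GFP+ than in RFP+ cells, with a median log2 change of -1.77. F2rl1, the protease-activated receptor PAR2 that prostasin and matriptase can cleave or activate, had 7.38 and 6.41 FPKM in RFP+ samples, 1.03 and 1.28 in untreated GFP+ samples and 0.637 and 0.675 in CTX-treated samples. Its log2 change was -1.87 between the untreated populations (limma adjusted p = 0.0102) and -2.25 between CTX-treated GFP+ and RFP+ cells (limma adjusted p = 9.86e-04). Its lowest values were those of CTX-treated cells. Epcam and Cldn7, adhesion and claudin proteins that form a complex cleaved by matriptase, fell by 2.03 and 2.24 on the log2 scale (limma adjusted p = 0.0262 and 0.0161). In CTX-treated GFP+ minus RFP+ cells their log2 changes were -2.11 (limma adjusted p = 0.00643) and -2.10 (limma adjusted p = 0.00421). With CTX the only call was Mst1, a secreted growth factor relative of HGF, which also entered the test through the CTX-treated samples alone and went from at most 0.0614 to 1.21 and 1.23 FPKM. Plau, the urokinase that matriptase can activate, had 6.69 and 17.7 FPKM in untreated GFP+ and 31.3 and 31.7 in CTX-treated samples, a log2 change of 1.44 that did not pass (limma adjusted p = 0.0945). It lies outside the rule for naming genes and was chosen after its values were seen. Of 11 other Kunitz-domain and prostasin inhibitors 3 were tested. As deposited none was past the threshold in any comparison in limma, and 1 lower, 1 higher and 0 had an unadjusted p under 0.05. After median-ratio scaling Aplp2 was lower in CTX-treated GFP+ than in RFP+ cells, at -0.57 (limma adjusted p = 0.0260).

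Of 15 measured apical Crumbs and Par complex genes, 10 were tested, and 2 were lower in untreated GFP+ cells. These were Pard6b, the Par6 scaffold, at -1.35 (limma adjusted p = 0.0161) and Prkcz, an atypical protein kinase C, at -1.10 (limma adjusted p = 0.0414). With CTX, Pard6g was 1.45 higher (limma adjusted p = 0.00484) and Mpp5, the Pals1 scaffold that binds Crumbs, 0.92 higher (limma adjusted p = 0.0388). Pard6b had 3.70 and 4.15 FPKM in RFP+, 0.821 and 1.05 in untreated GFP+ and 1.13 and 1.27 in CTX-treated samples, and its relative Pard6g had 2.69 and 3.25, 2.17 and 2.68, and 8.22 and 8.39. The 2 Par6 genes thus ran in different directions with respect to RFP+ cells, at -1.16 for Pard6b (limma adjusted p = 0.00583) and 1.23 for Pard6g (limma adjusted p = 0.00711) in CTX-treated cells. Inadl, the Patj scaffold, was at -1.27 there (limma adjusted p = 0.00937). Of 8 tested basolateral polarity genes, none passed between the untreated populations in limma (1 lower at an unadjusted p under 0.05), Dlg1 was 0.91 higher with CTX (limma adjusted p = 0.0415), and Dlg4 was 1.31 higher than in RFP+ cells (limma adjusted p = 0.0159).

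The trafficking lists were mixed. Of the 7 other AP-1 adaptor subunits, none passed between the untreated populations or with CTX in limma (1 lower and 1 higher at an unadjusted p under 0.05), and Ap1s2, a small chain, was 1.13 higher in CTX-treated than in RFP+ cells (limma adjusted p = 0.0176). Of 11 tested genes of the Rab11 recycling machinery, 3 were lower in untreated GFP+ cells. These were the Rab11 effectors Rab11fip4 at -1.42 (limma adjusted p = 0.0185) and Rab11fip5 at -1.07 (limma adjusted p = 0.0278), and the motor Myo5b at -1.20 (limma adjusted p = 0.0201). Rab11fip5 had 27.8 and 29.5 FPKM in RFP+ samples, 12.2 and 14.0 in untreated GFP+ samples and 27.4 and 26.8 in CTX-treated samples. With CTX it was 0.998 higher (limma adjusted p = 0.0133), and its log2 change from RFP+ cells was -0.07 with an interval from -0.47 to 0.32. Rab11fip1 was also higher with CTX, by 1.04 (limma adjusted p = 0.0184). Rab11fip4 and Myo5b remained lower than in RFP+ cells, at -1.41 (limma adjusted p = 0.00486) and -0.89 (limma adjusted p = 0.0144), and the motor Myo5a was 0.85 higher (limma adjusted p = 0.0484).

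**Figure D3:**
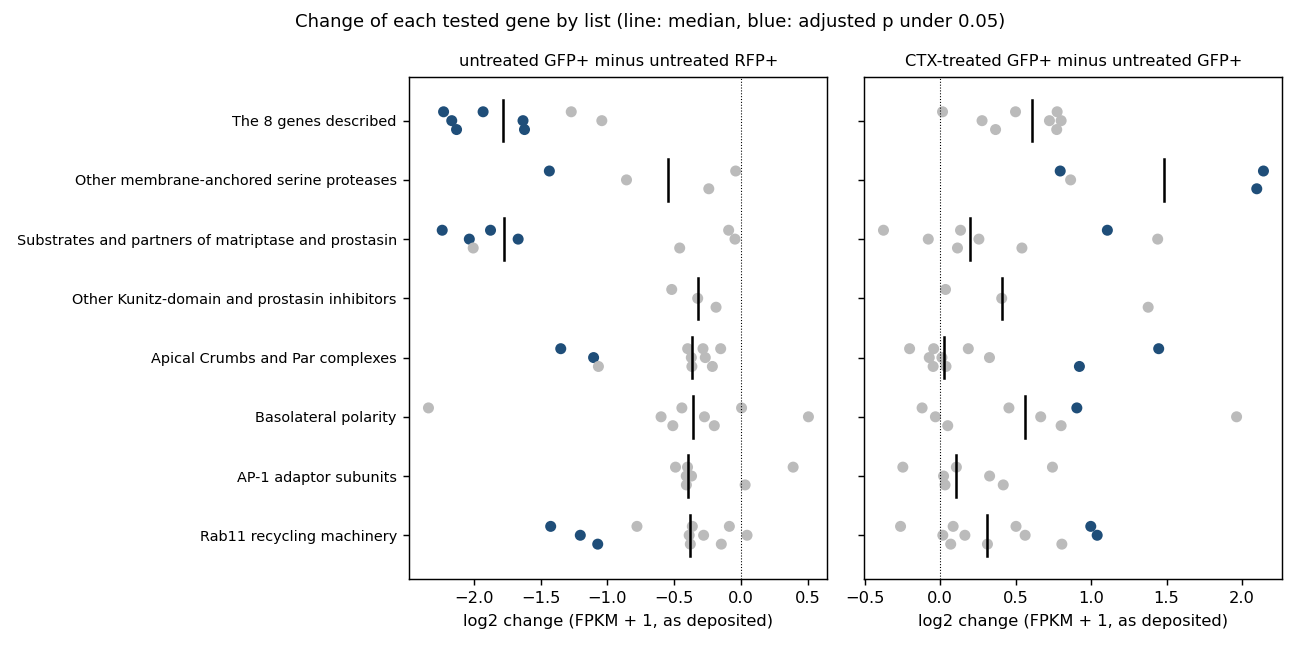
Log2 change of every tested gene of the 7 neighbouring lists beside the 8 genes, for untreated GFP+ minus RFP+ (left) and CTX-treated minus untreated GFP+ (right). Points are genes, blue past an adjusted p of 0.05 in limma, and lines are list medians. At right 3 of the blue points, Tmprss11bnl, Tmprss13 and Mst1, passed the filter through the CTX-treated samples alone. In untreated GFP+ minus RFP+ the medians of the 8 genes and of the substrates and partners lie at -1.78 and -1.77, against -0.24 over all tested genes.

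The genes moved together across the 6 samples to different degrees. Pearson's r of a gene with the mean of the other 7, on log2(FPKM + 1), was between 0.985 and 0.997 for St14, Spint1, Spint2, Rab25 and Ap1m2. It was 0.911 for Llgl2, 0.854 for Prss8 and 0.793 for Crb3, and 0.924, 0.849 and 0.705 for these after scaling. These are descriptions over 6 points that form 3 pairs of replicates. Among 7387 other named genes whose mean FPKM reached 10 in any group, those most like the mean of the 8 were Pkp3 (r = 0.999), Arrdc1 (0.998), Mif4gd, Ube2c (0.997 each), Mrps2, Klc3, Macc1 (0.996 each) and Ptprf (0.995). In all, 536 genes had an r above 0.9, and after scaling 174 of 7247 did. Pkp3, the desmosomal plaque protein plakophilin 3, had 16.1 and 18.3 FPKM in RFP+ samples, 3.05 and 5.62 in untreated GFP+ samples and 6.49 and 6.32 in CTX-treated samples. After scaling 2 of these 8 names, Pkp3 and Macc1, were again among the 8 most alike.

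Overlapping genes limit some of these values. In the GENCODE vM21 annotation the exons of Prss8 share 122 bases, 6.59% of its exonic length, with Kat8 on the other strand, which stood at 7.34 to 11.9 FPKM. Crb3 shares 14 bases with Dennd1c, which stood at 0.144 to 0.321 FPKM. Tmprss4 shares 412 bases, 15.9% of its exonic length, with the antisense gene Gm17099. The library kit does not mark strand, so reads from these stretches cannot be told apart. The other 6 genes share no exonic base with another gene there.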

How the data were processed

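Total RNA of sorted cells was sequenced from TruSeq RNA v2 libraries, per the labels' protocols. The authors deposited 1 table of FPKM values. The submitters' processing notes name TopHat, Cufflinks, HTSeq, FastQC and CASAVA 1.8.2, and mm9 as the build. Neither their order nor their settings are given in the sources used here. A fold column that held only division errors was not used.

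From these values log2(FPKM + 1) was modelled in R 4.3.3 with limma 3.58.1. A single model of 3 groups held the 6 samples, left 3 residual degrees of freedom and used an intensity trend. The filter required an FPKM of 1 or more in 2 or more samples and left 13080 genes. Tests were two-sided, and p-values were adjusted over all tested genes (Benjamini-Hochberg, threshold 0.05). Each of the 3 groups enters 2 of the comparisons. The procedure was run on simulated data in which each gene had the same spread in all groups. The spread of these samples differs between groups, so the simulation does not cover the effect of the close CTX-treated pair. The 8 genes and the 7 lists were chosen with earlier results of these data known.

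Named genes were the 8, up to 3 genes past the threshold per list and comparison with the largest change, the paralogues Ap1m1, Llgl1 and Rab11a, and the 8 genes of most similar pattern. Cdh1, Cd68 and Ptprc were named among the marker lists, and Kat8, Dennd1c, Flii and Gm17099 as overlapping genes. Dcn, Pdgfrb, Col1a1, Krt19, Cldn3, Cldn4, Esrp1, Aplp2, Plau, Rab11b, Prss21 and Tpsg1 were named after their values were seen. Promoter sequences are from RefSeq (GRCm38.p6), a later build than that of the expression table. Alternatives were other pseudocounts, filters, scalings, variance models and sample sets, a replicate covariate, and leaving out each sample. Scaling within the 4 samples compared and averaging the CTX-treated pair were added after seeing the data. Plots used Python 3.11.15 and matplotlib 3.10.9.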

Additional observations from a re-analysis of the deposited data

How the results depend on the processing

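Of the counts of the 8 genes past the threshold, 6 were lower between the untreated populations. With no filter on low values this count was 0 (limma, 8 at an unadjusted p under 0.05), as it was with median-ratio scaling in only the 4 samples compared (7 unadjusted). Leaving out 1 sample gave 0 (without either RFP+ sample) to 8 (without untreated GFP+ replicate 2). The count of 0 higher with CTX became 4 with the replicate block (Spint1, Rab25, Crb3 and Llgl2), and leaving out 1 sample gave 0 to 7. The count of 6 lower in CTX-treated GFP+ than in RFP+ cells became 3 with the CTX-treated pair averaged, and leaving out 1 sample gave 0 to 6. In the comparison with CTX the sign turned for St14 without untreated GFP+ replicate 1 (leaving out 1 sample gave -0.055 to 0.79), for Prss8 with median-ratio scaling (-0.22, also in only the 4 samples compared), quantile normalization (-0.45), without untreated GFP+ replicate 2 and without CTX-treated replicate 1 (-0.012, with a range of -0.089 to 0.12 over samples left out), and for Ap1m2 with median-ratio scaling (-0.0028 in both fits) and quantile normalization (-0.14). For Crb3 it turned without RFP+ replicate 2 (a range of -0.59 to 0.052 over samples left out, CTX-treated GFP+ minus RFP+). None of these signs was of a call, and the cause was not tested. Over the whole table, lower calls between the untreated populations ran from 1 to 4576 over all settings, and the share of higher calls was 6.05% as deposited and 34.1% after scaling. Same-numbered replicates deviated with correlations of 0.315 (untreated GFP+ and RFP+), -0.108 (CTX-treated and untreated GFP+) and -0.0353 (CTX-treated GFP+ and RFP+). The labels tie the numbers to no shared culture, so they were taken as names, and the block gave 8, 4 and 6 calls among the 8 genes in the 3 comparisons. Without read totals, how far depth limits the low values of Crb3 and Prss8 is unknown.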

Other observations

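The following values were singled out after they were seen. The ratio of Tmprss4 to St14 FPKM was 0.112 and 0.102 in RFP+ samples, 0.152 and 0.123 in untreated GFP+ samples and 0.617 and 0.680 in CTX-treated samples, so the 2 transmembrane proteases lay closest together in level after CTX. Serpine2, the secreted protease nexin-1 that can inhibit prostasin, was more abundant than any of the 8 genes in each sample. In RFP+ samples it had 199 and 420 FPKM, where Spint2 had 127 and 145. Serpine2 had 147 and 439 FPKM in untreated GFP+ samples and 656 and 667 in CTX-treated samples. Its replicates differed more than its untreated groups did. Its log2 change with CTX was 1.38 (SE 0.55), which did not pass (limma adjusted p = 0.149).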
